A study of Caenorhabditis elegans with 15 samples.

Results

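Splice site choice in KIN17(M107I) worms was set directly against splice site choice in PRCC(null) worms, without a control library in the comparison. The members are all splicing events with a value in each of the 6 libraries of these strains, 32068 of the 40212 events in the series. They comprise 16484 alternative 5' events, 13197 alternative 3' events and 2387 annotated events. The KIN17(M107I) strain carries unc-73(az63) and dxbp-1(az52) on chromosome I, where dxbp-1 encodes KIN17, and the PRCC(null) strain carries prcc-1(gk5556) on chromosome IV, a deletion of the whole coding region of prcc-1. Both strains also carry smg-4(az152), as do the control, KIN17(K23N) and PRCC(I371F) strains, and each of the 5 strains was sequenced in 3 libraries from separate RNA isolations of mixed-stage Caenorhabditis elegans. The KIN17(K23N) strain is unc-73(e936az30) dxbp-1(az121), and the PRCC(I371F) strain is prcc-1(az122). The allele unc-73(az63) is absent from the other 4 genotypes, so any effect of it cannot be told apart from that of dxbp-1(az52). The paper gives az63 as a mimic of unc-73(e936), and unc-73(e936az30) holds e936 with a second change in the same intron. Both KIN17 strains thus carry a mutated unc-73, and the genotypes of the PRCC strains and the control name none. In whole worms of mixed stages, a change in splicing within cells and a change in the share of a tissue or stage cannot be told apart.

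KIN17 and PRCC are proteins found in the spliceosome during its activation, after U1 snRNA has left the 5' splice site. The loss of smg-4 disables nonsense-mediated decay, which otherwise degrades many mRNAs whose reading frame was shifted by use of another splice site. PSI, the percent spliced in, is given here as the percent use of the downstream site for an alternative 5' event, of the upstream site for an alternative 3' event, and of the included form for an annotated event. A difference is always KIN17(M107I) minus PRCC(null), so a negative value is a PSI that was higher in PRCC(null).

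The 5' events that the study listed for PRCC(null) show which letters the competing sites have. Each sequence below begins at the first intron base of the upstream site, and the capitals mark the first 2 intron bases of the downstream site. The events with sites 1 nt apart were mostly of 1 kind, a GT site followed by a TT site.
F18E9.3, 1 nt: gTTagggaaatgt
szy-2, 1 nt: gTTatttttttta
tbce-1, 1 nt: gTTaacagacatt
T21H3.9, 1 nt: gTTagttatttag
At a distance of 2 nt, the downstream site was most often a second GT.
ZK637.14, 2 nt: gtGTgaagattta
mrpl-41, 2 nt: gtGTgaaattttg
M60.6, 2 nt: gtGTgaccgtatt
gldi-1, 2 nt: gtGCaggaaaatc
The sites 3 or 4 nt apart kept a GT upstream. All 5 listed pairs 4 nt apart had GT downstream, and at 3 nt 5 had GT and the rest had GC, GA or AT.
ogdh-1, 3 nt: gtaGTgacaaaaa
pen-2, 3 nt: gtaGAaaaaatca
oig-4, 4 nt: gtaaGTgaaaatt
ani-1, 4 nt: gtttGTttgtttt
A few pairs 1 nt apart began with GG, and they are shown because the strains differed there in the opposite direction.
F28F8.7, 1 nt: gGTacacattgca
pept-2, 1 nt: gGTtgttattgat
Y54G2A.36, 1 nt: gGAtagtttatcg

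The 6 libraries belong to 1 numbered set and were sequenced as paired reads of 75 nt. A PSI was present for 33670 to 33946 alternative 5' or 3' events in the KIN17(M107I) libraries and for 34702 to 34928 in the PRCC(null) libraries, and for 2472 to 2489 and 2488 to 2492 annotated events. No read counts accompany the PSI values, so the depth behind each value is unknown and no interval could be given. Between libraries of 1 strain, the mean absolute difference of the 5' events was 4.44 to 4.77 percentage points in KIN17(M107I) and 4.98 to 5.13 in PRCC(null), and between strains it was 5.85 to 6.13. For 3' events the same quantity was 5.0 to 5.3 and 5.0 to 5.1 within strains and 5.2 to 5.5 between them. An event entered the tables by the reads of all 15 libraries together, so a site that most strains hardly used is present mainly where some strain used it. Counts by direction and the mean use of rare sites therefore describe the catalogued events, and the part of this selection in them was not tested. The 5' events separated the strains by more than the spread among replicates, and the 3' events by little more.

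Use of the downstream 5' site was higher in PRCC(null) at most 5' events that differed between the strains. By the pairwise rule, which requires all 9 differences between libraries to exceed 15 percentage points in 1 direction and their mean to exceed 20, 229 of the 16484 5' events differed (1.39%). The downstream site was used more in PRCC(null) at 156 of these (0.946% of the events tested) and more in KIN17(M107I) at 73 (0.443%). limma called 190 events (1.15%) that differed by over 20 points on average at a p, adjusted by Benjamini-Hochberg, under 0.05. The downstream site was higher in PRCC(null) at 131 of them (0.795%) and in KIN17(M107I) at 59 (0.358%). Both criteria were met by 157 events (0.952%), 109 in the first direction (0.661%) and 48 in the second (0.291%). Smaller differences were far more frequent. At an adjusted p under 0.05 and any size, limma called 2092 events (12.7%), 1794 higher in PRCC(null) (10.9%) and 298 higher in KIN17(M107I) (1.81%), with a median absolute difference of 3.40 points. Of the 1794, 1034 were at 0% or 100% in all 3 libraries of a strain, as were 211 of the 298 and 6198 of all 16484 tested. The median PSI of the 1794 was 0% in KIN17(M107I) and 3.67% in PRCC(null). Without KIN17(M107I) replicate 2 the count at any size was 1361. The pairwise rule passed more events when any 1 library was left out, 343 to 403, because fewer pairs then had to exceed the threshold, and limma called 82 events when those at 0% or 100% in all 3 libraries of either strain were taken out.

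The counts by direction are given for each distance between the sites, and no test compared the distances. Among sites 1 nt apart, limma called 27 of 3642 events with the downstream site higher in PRCC(null) and 6 with it higher in KIN17(M107I). Among sites 2 nt apart, the counts were 27 and 1 of 1123 events. At 3 nt they were 10 and 9 of 1040, and at 4 nt 8 and 5 of 4317. At 5 nt they were 12 and 2 of 918, and at 6 to 9 nt 18 and 9 of 1345. At 10 to 50 nt the directions were nearly balanced, with 29 and 27 of 4099 events. Counted at any size, 700 events at 4 nt were higher in PRCC(null) and 32 in KIN17(M107I), while at 10 to 50 nt the counts were 75 and 67.

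**Figure D1:**
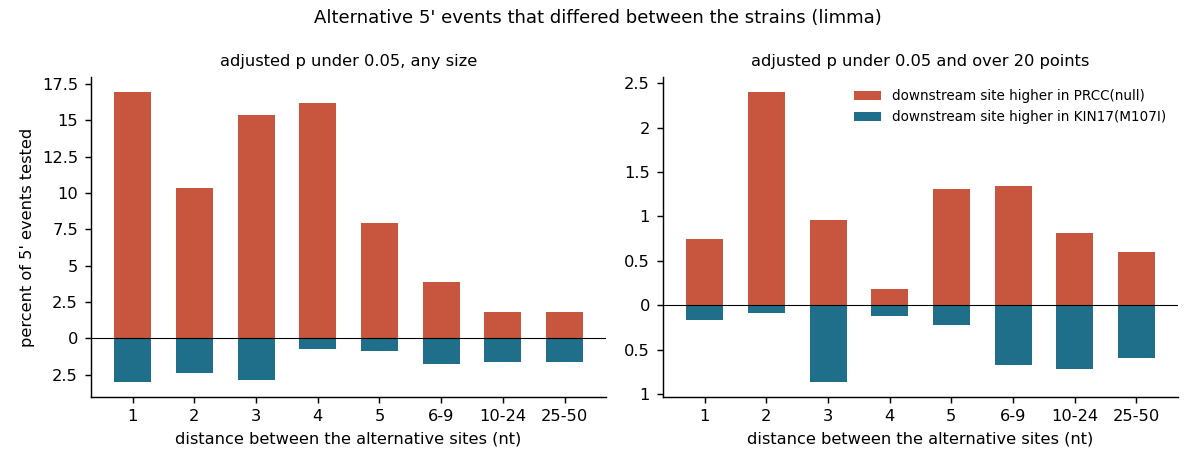
Percent of alternative 5' events that limma called between the strains, by distance between the sites in nt, at any size on the left and over 20 points on the right. Bars above 0 are events with the downstream site higher in PRCC(null) and bars below 0 those with it higher in KIN17(M107I). At any size the bars above 0 are tall from 1 to 4 nt (618 of 3642 events at 1 nt), and at 10 to 50 nt both directions are about equal.

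Among catalogued downstream sites that the smg-4 control hardly used, mean use was higher in PRCC(null) than in KIN17(M107I). Such a site could be catalogued through a strain where it is high, so these means are a description with no test. The control libraries served here only to pick events with a mean control PSI under 10%. For the 1980 such events with sites 1 nt apart, the mean PSI of the downstream site was 1.02%, 1.08% and 0.986% in the KIN17(M107I) libraries and 4.72%, 4.34% and 4.49% in the PRCC(null) libraries, a ratio of 4.40. The groups did not overlap, and the control mean was 0.340%. For 368 events 2 nt apart, the means were 2.86%, 2.70% and 2.99% against 8.36%, 8.55% and 8.09%, a ratio of 2.93. At 3 nt (548 events) the mean was 1.17% ± 0.11 in KIN17(M107I) and 4.29% ± 0.091 in PRCC(null) (SD, n = 3 libraries each). At 4 nt (3516 events) the means were 0.873% ± 0.062 and 2.21% ± 0.083. The ratio was 3.66 at 3 nt, 2.53 at 4 nt, 2.04 at 5 nt, 1.71 at 6 to 9 nt and 1.36 at 10 to 24 nt and 1.59 at 25 to 50 nt. In each of these 8 distance classes the libraries of the strains did not overlap.

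**Figure D2:**
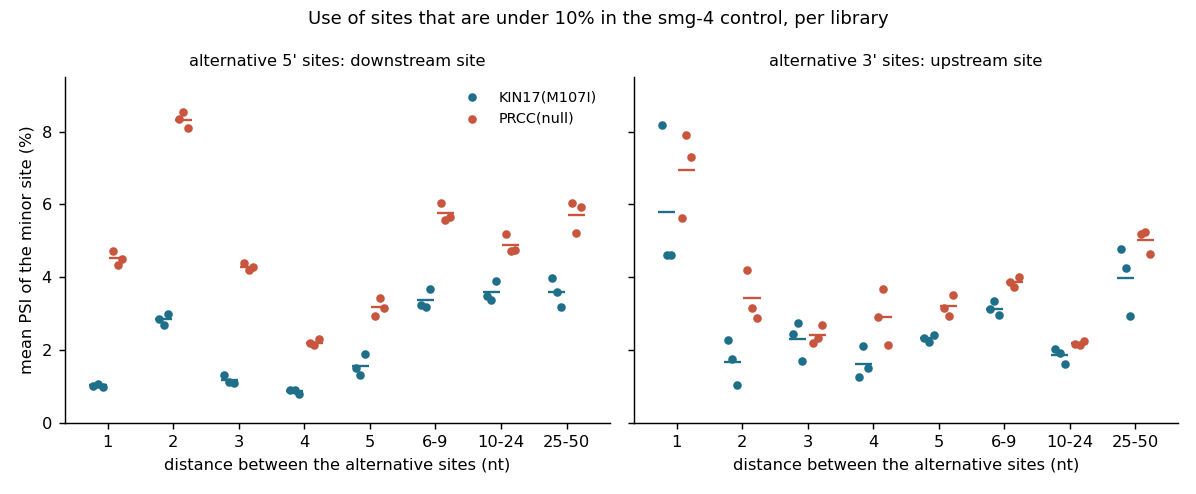
Mean PSI in percent of sites that the control used at under 10%, for each library, by distance between the sites in nt; dots are libraries and lines are means of 3. For 5' events the PRCC(null) dots lie above the KIN17(M107I) dots at every distance, with the 2 nt class highest (8.09% to 8.55%), whereas for 3' events the means of the strains are closer at most distances and the dots overlap at several.

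Minor upstream 5' sites, those left when the control used the downstream site at over 90%, differed less and not at every distance. Their mean use was 0.956% in KIN17(M107I) and 1.49% in PRCC(null) at 1 nt (1438 events), 1.02% and 1.85% at 2 nt (628 events), 2.0% and 3.63% at 3 nt (340 events) and 2.06% and 2.76% at 4 nt (495 events). It was 2.65% and 3.47% at 6 to 9 nt and 2.76% and 3.22% at 10 to 24 nt. At 5 nt the means were 2.98% and 3.21% and at 25 to 50 nt 2.81% and 3.05%, within the spread between replicates. Where the control used both sites (10 to 90%), the mean PSI of 119 events 1 nt apart was 46.9% ± 3.4 and 47.7% ± 0.52 (SD, n = 3; two-sided exact permutation p = 0.8). At 5 nt (127 events) it was 51.2% ± 1.1 and 54.0% ± 1.4 (exact permutation p = 0.2), and at 10 to 24 nt (460 events) 49.0% ± 0.59 and 50.3% ± 0.56 (exact permutation p = 0.1, the smallest that 3 libraries against 3 allow).

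Exact values of 0% or 100% were less common in PRCC(null). The downstream 5' site was at 0% in 33.8 to 36.3% of the 5' events of a KIN17(M107I) library and in 16.2 to 17.4% of those of a PRCC(null) library. With sites 1 nt apart, 61 to 65% and 30.2 to 32.2% of the events were at either end. With sites 10 to 24 nt apart these shares were 42.5 to 47.0% and 36.8 to 41.8%, and for all 3' events 43.0 to 46.9% and 39.1 to 41.3%. A deeper library has fewer exact 0 values, and the part of depth in these shares was not tested. 

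Among the same catalogued sites, those 1 nt downstream had higher mean use in long introns than in short ones in PRCC(null), and in KIN17(M107I) they did not. For introns under 75 nt (1058 events), the mean PSI was 1.13% ± 0.086 in KIN17(M107I) and 3.37% ± 0.12 in PRCC(null), a ratio of 2.98. For introns of 75 to 300 nt (385 events), the means were 0.935% ± 0.063 and 5.54% ± 0.52. For introns over 300 nt (537 events), they were 0.895% ± 0.056 and 6.05% ± 0.093 (SD, n = 3), a ratio of 6.76. Within each library, long introns minus short introns came to -0.146, -0.383 and -0.171 points in KIN17(M107I) and to 2.66, 2.70 and 2.69 points in PRCC(null). At 2 nt this contrast was 0.133 ± 0.69 points in KIN17(M107I) and 5.61 ± 0.64 in PRCC(null), and at 4 nt it was -0.249 ± 0.18 and 1.08 ± 0.026. At 5 nt it did not separate the strains (-0.701 ± 0.32 and -0.683 ± 0.42). The median intron of all 5' events tested was 71 nt. That of the 109 events higher in PRCC(null) by both criteria was 239 nt, and that of the 48 events higher in KIN17(M107I) was 83 nt.

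**Figure D3:**
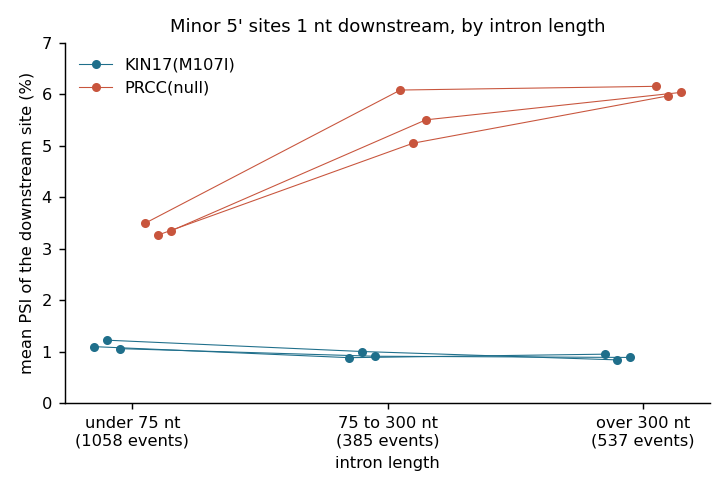
Mean PSI in percent of downstream 5' sites 1 nt away that the control used at under 10%, by intron length class, with 1 line per library. The KIN17(M107I) lines stay near 1% in all classes and the PRCC(null) lines go from 3.37% on average in introns under 75 nt to 6.05% in introns over 300 nt.

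The next events were listed by the study from these same libraries, so their direction is not independent evidence; those described first have the lowest adjusted p of their distance class. The 24 events so chosen kept a limma adjusted p under 0.05 whichever of the 6 libraries was left out. They were picked for a low p in these same libraries, so keeping it is no independent check. The events chosen by gene that follow them were not picked by p, and not all of them kept it. Positions are on ce10 and span the flanking exon parts that the event files give. Among sites 1 nt apart, F18E9.3 (chrX:8586455-8587096) used the TT site at 5.38%, 2.50% and 5.97% in KIN17(M107I) and at 65%, 57.0% and 60.7% in PRCC(null), a difference of -56.3 points (limma adjusted p = 0.0048). szy-2 (chrIII:5370256-5371078), an inhibitor of protein phosphatase 1, stood at 8.33%, 8.80% and 8.04% against 41.5%, 43.4% and 46.2%. In szy-2, as in F18E9.3, no KIN17(M107I) library came near a PRCC(null) library. The tubulin folding cofactor tbce-1 (chrIV:8294777-8295173) had 3.45%, 2.97% and 3.73% against 28.8%, 33.3% and 26.5%. The sorting nexin snx-13 (chrIV:17082738-17083676) had 2.50%, 3.12% and 2.14% against 25.8%, 25.2% and 22.7%. The DNA helicase rtel-1 (chrI:10573678-10574287) had 2.70%, 1.82% and 1.92% against 40%, 37.0% and 24.2%. Below the 20 point limit were lev-11 (tropomyosin), with a difference of -16.4 points, and gip-1 (a gamma-tubulin complex protein), with -17.3 points. All 46 listed pairs of a GT followed by a TT were used more in PRCC(null), with a median PSI of 3.27% in KIN17(M107I) and 23.2% in PRCC(null). A limma adjusted p under 0.05 was reached by 42 of them and by 12.7% of all 5' events tested. The study listed these pairs for their change in the same PRCC(null) libraries, so the shares cannot be compared as a trait of the sequence.

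The pairs that begin with GG went the other way. In F28F8.7 the downstream GT site was used at 86.7%, 95.5% and 94.7% in KIN17(M107I) and at 52.4%, 61.4% and 46.9% in PRCC(null), so that the upstream GG site was used more in PRCC(null) than in KIN17(M107I) (adjusted p = 0.021). The peptide transporter gene pept-2 had 91.8%, 84.4% and 87.6% against 69.5%, 73.2% and 72.1% (adjusted p = 0.074), and Y54G2A.36 had a difference of 14.9 points (adjusted p = 0.043). The fourth such pair, in enee-1, had 96.7%, 98.0% and 96.5% against 82.7%, 82.2% and 79.6%. These 4 were the only listed 5' events of PRCC(null) with a lower PSI in PRCC(null), and the introns of all 4 were 45 to 49 nt long.

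At sites 2 nt apart the same direction held in all 26 listed events. ZK637.14 (chrIII:8888049-8889836) used the second GT at 3.27%, 2.64% and 3.07% in KIN17(M107I) and at 47.7%, 46.6% and 45.7% in PRCC(null), a difference of -43.7 points (adjusted p = 0.0038). The mitochondrial ribosomal protein gene mrpl-41 (chrII:289081-289829) had 8.19%, 4.68% and 5.76% against 42.8%, 39.6% and 44.5%. In gldi-1 (chrII:483036-483720), where the downstream site reads GC, the values were 12%, 10% and 6.99% against 61.5%, 50% and 59.6%. Y48E1C.2 had 10.2%, 11.0% and 13.4% against 51.9%, 51.1% and 63.5%. In each of these genes the lowest PRCC(null) library was above the highest KIN17(M107I) library by more than 30 points. The histone demethylase gene spr-5 (chrI:13439059-13440856) had 3.26%, 3.49% and 3.45% against 29.4%, 20.9% and 24.3%, and the cell engulfment adaptor ced-2 had a difference of -17.5 points. tsct-2 had 11.8%, 9.52% and 9.52% against 46.7%, 40% and 47.2%, and C36B7.6 had a difference of -30.3 points. Of the 26 events, 23 had GT and 3 had GC at the downstream site.

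At 3 nt, which keeps the reading frame, ogdh-1 (chrIV:4703443-4703937), a subunit of the oxoglutarate dehydrogenase complex, used the downstream site at 3.39%, 4.88% and 3.94% in KIN17(M107I) and at 32.7%, 32.7% and 35.3% in PRCC(null). The kinesin adaptor trak-1 (chrI:6125655-6125972) had 1.16%, 0.699% and 0.966% against 29.3%, 23.6% and 23.1%. The gamma-secretase subunit pen-2 had a difference of -16.4 points and mrpl-38 one of -18.4 points. At 4 nt, the collagen gene col-3 (chrIV:8824814-8825215) stood at 0.0664%, 0% and 0.0347% against 22.2%, 23% and 23.1% (difference -22.7 points, adjusted p = 0.0038). ani-1 (chrIII:12447191-12448070), which encodes anillin, had 0%, 0% and 0.498% against 24.3%, 18.2% and 22.2%. oig-4, a synaptic immunoglobulin-domain protein, was at 0% in all 3 KIN17(M107I) libraries and at 22.7%, 15.2% and 20.0% in PRCC(null), and prx-19 had 3.22%, 3.77% and 2.22% against 23.3%, 19.8% and 24%. The KIN17(M107I) libraries were at or near 0 in col-3, ani-1 and oig-4 and above 0 in prx-19.

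**Figure D4:**
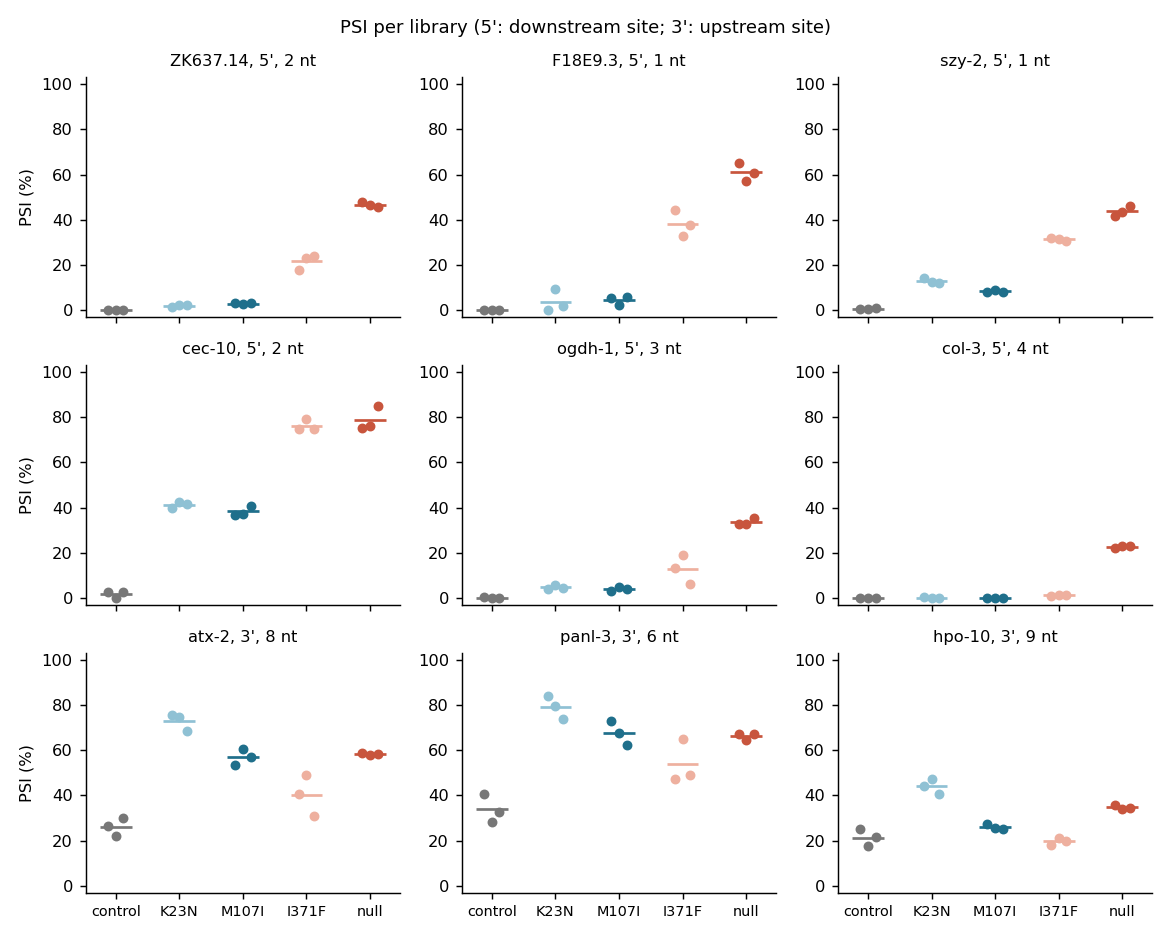
PSI in percent per library for 6 alternative 5' events (downstream site) and 3 alternative 3' events (upstream site) in the 5 strains; dots are libraries and lines are means of 3. The PRCC(null) dots stand above the KIN17(M107I) dots in the 6 5' events (47.7%, 46.6% and 45.7% against 3.27%, 2.64% and 3.07% in ZK637.14), and in atx-2 and panl-3 the 2 strains overlap.

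Events chosen by gene did not all pass the test. The chromodomain gene cec-10 (chrI:4374370-4376509) used its downstream site, 2 nt away, at 37.0%, 37.4% and 40.6% in KIN17(M107I) and at 75.3%, 76.2% and 84.7% in PRCC(null) (difference -40.4 points, adjusted p = 0.014). M60.6 (chrX:8250261-8250684) had 24.3%, 22.4% and 16.7% against 45.9%, 54.1% and 54.7% (difference -30.4 points, adjusted p = 0.025, but 0.066 without KIN17(M107I) replicate 2 and 0.053 without replicate 3). The spastin gene spas-1 (chrV:9176513-9176746) had 33.3%, 21% and 16.5% against 54.4%, 62.5% and 50% and passed the pairwise rule, with an adjusted p = 0.057 (0.044 without KIN17(M107I) replicate 1). T21H3.9 (chrV:17655665-17655863) had 23%, 24% and 17.5% against 40.5%, 31.8% and 37.0% (adjusted p = 0.13). In F59A7.5 the values were 35.8%, 23.8% and 24.6% against 38.9%, 36.8% and 33.3% (adjusted p = 0.44), so the strains overlapped. A second event in cec-10, with a shared end elsewhere, stood at 66.7%, 100% and 83.3% against 100%, 85.7% and 100% (adjusted p = 0.60).

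Most of the largest 5' differences by both criteria came from events at or near 0% and 100%. At A5.003628 (chrI:14425250-14426433, sites 9 nt apart) PSI was 0% in all 3 KIN17(M107I) libraries and 100% in all 3 PRCC(null) libraries, and in PRCC(I371F) it was 0% in 1 library and 100% in another. A5.005923 (chrII:9932552-9932781, 6 nt) was at 0% in all KIN17(M107I) libraries and at 100%, 100% and 91.7% in PRCC(null), and at 100% in all 3 PRCC(I371F) libraries. A5.014744 (chrV:1263654-1263817, 5 nt) was at 0% against 91.7%, 100% and 89.5%. A5.008000 (chrIII:4694973-4695394, 1 nt) was different in that KIN17(M107I) stood apart from the other mutant strains, with 8.70%, 14.3% and 21.6% against 100% in every library of PRCC(null), PRCC(I371F) and KIN17(K23N); the control had no PSI there. The other 6 of the 10 largest differences towards the downstream site in PRCC(null) were -86.5 to -92.9 points. In the opposite direction, A5.014407 (chrIV:15524736-15525713, 29 nt) was at 100% in all 3 KIN17(M107I) libraries and at 22.2%, 9.09% and 23.5% in PRCC(null), and at 58.3%, 25% and 11.1% in PRCC(I371F). Of the 27 events named for size (5', 3' and annotated), 13 kept an adjusted p under 0.05 whichever library was left out. Their sign could not change, since the pairwise rule that chose them requires all 9 differences in 1 direction.

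The event at the unc-73 allele separated the strains by genotype. unc-73(az63) copies a mutation at the first base of an intron that shifts splicing to a site 23 nt downstream, and the event A5.000841 (chrI:4021687-4022022) has its sites 23 nt apart at that place. PSI of the downstream site was 73.3%, 100% and 84.0% in the KIN17(M107I) libraries and 0% in all 12 other libraries. The adjusted p was 0.016, and it was 0.054 to 0.062 without KIN17(M107I) replicate 3 or without any 1 PRCC(null) replicate. The labels give az63 to the KIN17(M107I) strain alone, so this event is a check of the labels and no comparison of KIN17 with PRCC. No named event in dxbp-1 or prcc-1 was at hand, and PSI tables hold no expression level, so the deletion itself was not checked.

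Events chosen in the libraries of the other PRCC allele moved in the same direction. The position list for PRCC(I371F) against control holds 69 alternative 5' entries, of which 68 matched 71 events, and 70 of these had a PSI in all 6 libraries. PSI was higher in PRCC(null) at 61 of the 70 and higher in KIN17(M107I) at 9, with a median difference of -16.7 points. Of the same 70, limma gave an adjusted p under 0.05 to 36 in the first direction and 2 in the second. Of all 16484 5' events tested, 10075 were higher in PRCC(null) and 5828 in KIN17(M107I), with a median difference of -0.233 points. Of 193 events that passed the pairwise rule as higher in PRCC(I371F) than in control, 150 had a PSI in all 6 libraries. Of these 150, 129 were higher in PRCC(null) and 17 in KIN17(M107I) (median -17.1 points), and 46 had an adjusted p under 0.05, all higher in PRCC(null). Of 87 that passed as lower in PRCC(I371F), 68 had a PSI in all 6 libraries. Of these 68, 15 were higher in PRCC(null) and 53 in KIN17(M107I) (median 16.3 points). The smaller 5' lists chosen in KIN17(K23N) libraries went the same way. All 5 listed events were higher in PRCC(null) (median -23.9 points). Of 30 that passed the rule as higher in KIN17(K23N) than in control and had a PSI in all 6 libraries, 22 were higher in PRCC(null) and 7 in KIN17(M107I). Of 22 that passed as lower, 7 and 15 were. Of the 90 events listed for PRCC(null) itself, which were chosen on these libraries, 86 were higher in PRCC(null) (median -20.2 points).

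At the called 5' events, which were chosen for their difference between the 2 strains, the median PSI of KIN17(M107I) lay nearer to that of the control than the median of PRCC(null) did. Single events could be far from the control in both mutants. In cec-10 the means were 1.82% in the control, 38.3% in KIN17(M107I) and 78.8% in PRCC(null). Of the 109 events higher in PRCC(null) by both criteria, 88 had a PSI in all 15 libraries. The control mean was below both mutants at 54 of the 88, between them at 33 and above both at 1. The medians over the 88 were 0.131% in the control, 3.39% in KIN17(M107I), 4.34% in KIN17(K23N), 25.7% in PRCC(I371F) and 40.3% in PRCC(null). The 21 of these with sites 1 nt apart had medians of 0%, 3.38%, 3.05%, 20.1% and 31.1% in the same order, and the control was below both mutants at 19. The 33 events higher in KIN17(M107I) had medians of 86.1% in the control, 92.9% in KIN17(M107I) and 45.6% in PRCC(null). The control libraries carry numbers from another set than these 6, so the place of the control relative to both may also hold a difference between the sets, which was not tested.

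The other KIN17 and PRCC alleles, in libraries that share none with these 6, gave differences of the same sign at most of these 5' events. In both pairs the KIN17 strain carries a mutated unc-73 and the PRCC strain does not. An effect of unc-73 therefore cannot be told apart from that of KIN17 in either pair. KIN17(K23N) minus PRCC(I371F) had the same sign at 71 of 83 events called higher in PRCC(null) (median -14.4 points, against -31.6 points in the present comparison) and at 30 of 34 called higher in KIN17(M107I) (20.4 and 41.8 points). Over all 15618 5' events with a PSI in the 12 libraries, the sign was the same at 9365 (60%). For calls higher in PRCC(null), the sign was the same at 22 of 23 at 1 nt and 22 of 22 at 2 nt. It was the same at 7 of 7 at 3 nt, 4 of 5 at 4 nt and 5 of 5 at 5 nt. At larger distances it was the same at 5 of 9 (6 to 9 nt), 3 of 7 (10 to 24 nt) and 3 of 5 (25 to 50 nt). These calls are few, and no test compared them with the shares of all events at the same distances. For calls higher in KIN17(M107I), the sign was the same at 5 of 8 at 10 to 24 nt and 6 of 7 at 25 to 50 nt. At closer sites it was the same at every such call. For the 3' events called, it was the same at 5 of 12 and at 1 of 2, and over all 12495 3' events at 5509 (44.1%). A difference of 0 in only 1 of the pairs counted as not the same, so the rest are not all of opposite sign. The other pair had a difference of 0 at 767 of the 3' events, 2 of them among the 12 calls. Among the 5' events this held for 975.

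**Figure D5:**
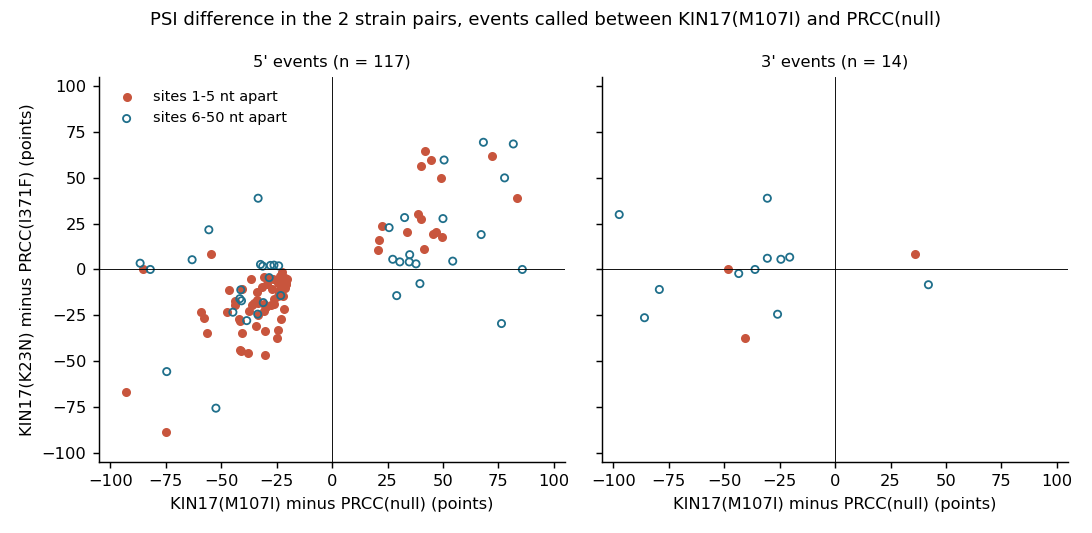
PSI difference in percentage points between KIN17(M107I) and PRCC(null) (x axis) and between KIN17(K23N) and PRCC(I371F) (y axis) for the 117 5' events and 14 3' events called by both criteria that had a PSI in all 12 libraries. Filled dots have sites 1 to 5 nt apart and open dots 6 to 50 nt. Most filled 5' dots lie in the lower left or upper right, and the 3' dots lie on both sides of 0.

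Few alternative 3' events differed between the strains. The pairwise rule passed 57 of 13197 3' events (0.432%), 41 with the upstream site higher in PRCC(null) (0.311%) and 16 with it higher in KIN17(M107I) (0.121%). limma called 23 over 20 points (0.174%), 18 in the first direction (0.136%) and 5 in the second (0.0379%). At any size it called 119 (0.902%), 66 (0.5%) and 53 (0.402%) by direction. Both the rule and limma were met by 20 events (0.152%), 16 and 4 (0.0303%) by direction. An unadjusted p under 0.05 was reached by 866 events. The call of 23 rested on events at 0% or 100% in all 3 libraries of a strain, since without them limma called 0, and it was 38 to 49 when any 1 library was left out, so the number of 3' calls is not firm. The pairwise rule passed 113 to 153 with any 1 library left out and 24 without the events at an end.

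The 3' events tied to KIN17(K23N) did not separate KIN17(M107I) from PRCC(null). Of the alternative 3' entries in the position list for KIN17(K23N) against control, 94 were matched, to 95 events, and the rest were not. Of these 95, 58 had a higher PSI in PRCC(null) and 37 in KIN17(M107I), with a median difference of -1.28 points, and none passed the pairwise rule or had a limma adjusted p under 0.05 (all 3' events tested: 6718 and 5828, median -0.00837). Of 149 that passed the pairwise rule as higher in KIN17(K23N) than in control, 140 had a PSI in all 6 libraries. Of these 140, 80 were higher in PRCC(null) and 59 in KIN17(M107I) (median -1.10 points), again with none past either threshold. The ataxin gene atx-2 (chrIII:10467088-10467281) used its upstream 3' site at 53.5%, 60.4% and 57.2% in KIN17(M107I) and at 58.7%, 58.0% and 58.2% in PRCC(null) (adjusted p = 0.96). panl-3 (chrIII:9819793-9820145), which encodes a subunit of the PAN deadenylase, had 72.9%, 67.5% and 62.4% against 67.1%, 64.7% and 67.1% (adjusted p = 0.98). smg-8, a regulator of the decay kinase SMG-1, had 83.5%, 78.9% and 73.8% against 74.7%, 79.8% and 80.2% at sites 6 nt apart. In these 3 genes the strains overlapped. The control means were 26.2% in atx-2, 33.8% in panl-3 and 55.4% in smg-8, below every library of both strains. The control libraries are from another numbered set, and the part of the set in this was not tested.

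The listed 3' events with the lowest adjusted p had small differences that did not pass the test. hpo-10 (chrIII:5881071-5881253) stood at 27.4%, 25.4% and 25.2% in KIN17(M107I) and at 35.7%, 33.9% and 34.6% in PRCC(null) (difference -8.75 points, adjusted p = 0.25). The FOXO transcription factor gene daf-16 (chrI:10763629-10764412) had 43.1%, 41.6% and 42.2% against 50.7%, 52.5% and 54.0% (difference -10.1 points, adjusted p = 0.28, and 0.046 without PRCC(null) replicate 1). nra-4 (chrV:1048341-1048528), a protein of the endoplasmic reticulum that acts on acetylcholine receptors, had the reverse order, with 31.9%, 30.8% and 30.4% against 21.8%, 21.1% and 25.2% (difference 8.32 points, adjusted p = 0.34, and 0.029 without PRCC(null) replicate 3). In hpo-10, daf-16 and nra-4 the libraries of the strains did not overlap, although the differences were under 11 points. The other 5 events so chosen, in crh-2, szy-20, F26F2.7, F52G3.1 and atg-5, had differences of -7.28 to 9.30 points and adjusted p-values of 0.40 to 0.67. The minor upstream 3' sites, under 10% in the control, were used at 3.14% ± 0.19 in KIN17(M107I) and 3.87% ± 0.13 in PRCC(null) at 6 to 9 nt (1670 events, ratio 1.23), and at 1.86% ± 0.21 and 2.19% ± 0.045 at 10 to 24 nt (1663 events, ratio 1.17; SD, n = 3). At 3 nt (141 events) the means were 2.30% ± 0.54 and 2.40% ± 0.25. In smaller classes the ratio was larger, with 1.68% ± 0.62 and 3.42% ± 0.70 at 2 nt (67 events, ratio 2.04) and 1.62% ± 0.43 and 2.91% ± 0.76 at 4 nt (87 events, ratio 1.79). These means describe catalogued sites, as for the 5' events.

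The largest 3' differences by both criteria were again nearly all or none. A3.006557 (chrIII:5941754-5941932, 5 nt) and A3.014188 (chrV:13735091-13735277, 6 nt) were at 0% in all KIN17(M107I) libraries and at 100% in all PRCC(null) libraries. A3.008836 (chrIV:1721415-1722415, 15 nt) was at 0% in KIN17(M107I) and at 78.9%, 77.5% and 81.4% in PRCC(null) (adjusted p = 0.0002), yet replicates of 1 strain differed as widely, with 89.9%, 0% and 0% in the control and 38.6%, 85.3% and 0% in PRCC(I371F). A3.010371 (chrIV:8823745-8824137, 4 nt) was at 66.7%, 50% and 27.8% in PRCC(null) and at 0% in the 12 other libraries, with an adjusted p = 0.031 that was 0.089 to 0.10 without PRCC(null) replicate 2 or without any 1 KIN17(M107I) replicate. The other 6 named 3' events had differences of -97.3, -85.9, 55.6, 42.1, 39.7 and 36.1 points.

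Among the annotated classes, few events differed. Of the 2387 events, 10 passed the pairwise rule (0.419%), 4 of them skipped exons, 3 alternative first exons, 2 retained introns and 1 an alternative last exon. PSI was higher in KIN17(M107I) at 6 (0.251%) and in PRCC(null) at 4 (0.168%), and the rule passed 21 to 24 events with any 1 library left out. limma called 2 over 20 points (0.0838%) and 4 at any size (0.168%), with 201 at an unadjusted p under 0.05. The retained intron RI.0000527 (chrII:6365950-6366545) was kept in 11.6%, 10.5% and 10.3% of KIN17(M107I) transcripts and in 33.9%, 36.5% and 38.9% of PRCC(null) transcripts, a difference of -25.6 points. In PRCC(I371F) it was kept in 19%, 23.6% and 22.3%, in KIN17(K23N) in 13.7%, 12.4% and 13%, and in the control in 10.2%, 11.1% and 10.5%. Its adjusted p of 0.046 was 0.082 to 0.25 when any 1 of the 6 libraries was left out. The alternative first exon AF.0000537 (chrX:10809849-10812507) stood at 50%, 50% and 66.7% against 100% in the 3 PRCC(null) libraries (adjusted p = 0.019, and 0.077 to 0.11 without any 1 library other than KIN17(M107I) replicate 3).

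Other annotated events passed the pairwise rule and not limma. The first exon AF.0000219 (chrII:12280598-12283753) was used at 100%, 99.1% and 98.3% in KIN17(M107I) and at 65.6%, 65.8% and 61.4% in PRCC(null), while the other 9 libraries lay at 95.0 to 99.4%. The skipped exon SE.0000472 (chrII:11978370-11979479) was included at 71.3%, 71.9% and 71.0% against 53.6%, 50.9% and 48.1%. SE.0000597 (chrX:6845296-6845860) was included at 65.1%, 67.3% and 76.0% against 40.5%, 48.4% and 45.4%. At 1 locus on chromosome X (chrX:4677323-4677904), a retained intron was kept at 51.1%, 51.2% and 47.8% against 75.9%, 76.8% and 81.0%, and an alternative last exon that shares the span was used at 39.7%, 36.8% and 43.3% against 16.1%, 21.6% and 14.2%. These 2 events share their span and are not independent. The scores of this retained intron and its spliced form summed to only 323 to 379 of 1000 in KIN17(M107I) and 137 to 318 in PRCC(null), so its PSI rests on rescaling to that sum, and the included scores before rescaling overlapped between the strains. In the first exon, both skipped exons and the last exon the libraries of the strains did not overlap. The remaining 3 that passed the rule, SE.0000223, AF.0000229 and SE.0000198, had adjusted p-values of 0.46 to 0.59.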

How the data were processed

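Triplicate libraries of 5 strains were sequenced as paired reads of 75 nt, with 9 libraries to a lane. The authors trimmed the reads, aligned them to ce10 (WS220) with STAR altered to accept UU/AG introns, and derived PSI with junctionCounts. The submitters' processing notes also name cutadapt, Bowtie2 and SAMtools. The deposited tables hold a score for each form of an event, PSI on a scale to 1000, but no reads, and how many reads lie behind a single PSI is not known. Events entered the tables on reads summed over all samples. Scores of 1 and 999 were read as 0% and 100%, an assumption. In skipped, mutually exclusive and multiple exons and retained introns the scores of both forms often summed to under 1000, and PSI was the included score over the sum. Libraries were grouped by the genotype in their labels.

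Events with a PSI in all 6 libraries were compared by the study's pairwise rule, without its inspection by eye, and by limma 3.58.1 (R 4.3.3; trend and robust) on log2((PSI + 0.01)/(1 - PSI + 0.01)), with PSI as a fraction and Benjamini-Hochberg adjustment within each of 3 tables (5', 3', annotated). Differences over 20 points at adjusted p under 0.05 were called. Both steps were tested on simulated data. p-values measure the spread between RNA isolations of 1 strain each. Gene names and sequences come from the study's list of events, matched by position. Named were the 10 and 5 largest 5' differences towards and away from the downstream site in PRCC(null), up to 6 in each direction for 3' events, up to 8 annotated events that met both criteria, and genes fixed by name; the listed events of lowest adjusted p in each distance class, the 4 GG pairs and the annotated events that passed the rule alone were chosen after their values were seen. The members and lists were chosen with earlier results of these data known. Lists of spliceosome and decay genes gave named events only in smg-8, and lmd-1, dxbp-1 and prcc-1 gave none. Alternatives were another smallest difference or offset, PSI untransformed, other fits and filters, and each library left out.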

Additional observations from a re-analysis of the deposited data

Results flagged for a closer look

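The difference between KIN17(M107I) and PRCC(null) was set against that between KIN17(K23N) and PRCC(I371F) by an interaction term in limma over the 12 libraries, adjusted over all events of each table. Of 15618 5' events, 382 had an adjusted p under 0.05 (2.45%), of 12495 3' events 21 and of 2304 annotated events 66. Among the named events 7 did, and their difference of differences is given in percentage points. It was -85.1 at A5.008000 (limma adjusted p = 6.8e-05), where KIN17(K23N) and PRCC(I371F) were both at 100%. It was 85.8 at the unc-73 event A5.000841, whose allele az63 is in the KIN17(M107I) strain alone, and -48.1 at A3.010371. It was -17.1 at the retained intron RI.0000527, -16.7 in ani-1 and -21.5 in col-3, where PRCC(null) stood above PRCC(I371F). In hpo-10 it was -33.1, as the difference was -8.75 in the present pair and 24.3 in the other. The 4 strains come from 2 numbered sets of libraries, so allele and set cannot be told apart.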

How the results depend on the processing

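No paired analysis was possible because the replicate numbers only count the RNA isolations of each strain and the labels tie no KIN17(M107I) library to a PRCC(null) library. For 5' events the pairwise rule gave 144 with a PSI in all 15 libraries, 130 without events at 0% or 100% in all 3 libraries of a strain (an alternative chosen after seeing the data) and 343 to 403 with 1 library left out. limma gave 82 without events at an end and 190 to 213 with 1 library left out. Without a threshold on size it called 2092 events, 728 at 1 nt and 143 at 2 nt. The count at any size was 1383 with PSI not transformed and 1361 to 2296 with 1 library left out, and 1203 of those 1383 were higher in PRCC(null). At 1 and 2 nt, leaving out 1 library gave 32 to 40 and 21 to 26 calls. For 3' events the rule gave 28, 24 and 113 to 153 in the same 3 settings, and limma gave 3 with all 15 libraries in 1 fit, 9 with PSI not transformed, 119 without a threshold on size, 0 without events at an end and 38 to 49 with 1 library left out. For annotated events the rule gave 21 and 6 with a smallest difference of 10 and 20 points and 21 to 24 with 1 library left out. limma gave 6 with all 15 libraries in 1 fit, 0 with an offset of 0.05 and with PSI not transformed, 4 with an offset of 0.001, 5 without the trend and robust options, 5 for events ranging over 1 point, 4 without a threshold on size, and 0 to 2 with 1 library left out. Over the 71 named events with each library left out in turn, 357 values kept their side of the threshold, 65 lost the adjusted p and 4 gained it. The sign was kept by 66 of the 71, among them all 53 with an adjusted p under 0.05. It changed, or the difference reached 0, in uncalled events of smg-8, panl-3 and atx-2. The pairwise rule fixed the sign of the 27 events named for size beforehand, so their sign is no check. The absence of read counts limits all single events, above all those at 0% or 100%.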
